A study of Mus musculus with 8 samples.

Results

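The ADAMTS, ADAMTS-like, MMP and TIMP genes were followed in liver pericytes that store retinoids, the hepatic stellate cells. Cells labelled as knockout for the transcription factor gene Lhx2 were compared with control cells. All genes of these families were taken that the platform annotation pairs with a probe set as the single symbol, and the brightest probe set stood for a gene with several. That gave 49 of 19938 genes, namely 18 ADAMTS, 5 ADAMTS-like, 22 MMP and 4 TIMP genes.

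The knockout group held 4 arrays, numbered 5 to 8, of cells whose donor mice carried both floxed Lhx2 and Mx1Cre. The control group held 4 arrays, numbered 1 to 4, of cells whose donor mice carried floxed Lhx2 but lacked Cre. Both groups were on a C57BL/6J background, both had received 3 treatments with poly(I:C), an inducer of interferon, and cells were isolated 2 weeks later by density centrifugation and a sort on retinoid autofluorescence. The sources used here do not state ages. The interferon-responsive Mx1 promoter drives Cre in blood cells and in several kinds of liver cell, so loss of Lhx2 in stellate cells and loss in other cells cannot be told apart, nor can loss of Lhx2 and the presence of the transgene. Whether every array had its own animal is not in the labels; the p-values reflect array-to-array spread, possibly only technical.

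ADAMTS proteins are secreted zinc proteases with thrombospondin repeats that cut proteoglycans, procollagens and von Willebrand factor. ADAMTS-like proteins share the repeats but lack the protease domain, and several of them bind fibrillin microfibrils. Matrix metalloproteases (MMPs) cut collagens, basement membrane and many other proteins outside the cell or at its surface. Tissue inhibitors of metalloproteases (TIMPs) bind and block them. In the liver, stellate cells are known as a main source of matrix proteases and of their inhibitors, and in scarring the balance between both is thought to set how much matrix is removed.

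Values are log2 expression levels as deposited, where a difference of 1 is a doubling in signal, and each is relative to the other levels on its array. Fewer cells of a type and less RNA per cell cannot be told apart. Lhx2 had levels of 11.09, 11.24, 11.35 and 11.49 in knockout arrays, against 12.07, 11.88, 11.94 and 11.92 in control arrays. All knockout arrays lay below all control arrays (difference -0.66, SE 0.09, limma adjusted p = 0.00136; exact two-sided permutation p = 0.0286, the smallest that 4 against 4 arrays allow). The part of Lhx2 that is floxed is not given in the labels, so the probe set may lie outside it. Lhx2 signal stayed bright in knockout arrays, and how complete the deletion was in the sorted cells was not tested. Of 15 stellate markers, 7 fell (Lhx2 itself, Reln, Hgf, Nes, Gfap, Rgs5 and Hand2), 1 rose (Pdgfra) and 7 did not pass, with a median change of -0.23. Their summed linear signal was 113830 to 118205 in knockout arrays and 123844 to 133002 in control arrays. Lrat and Des, which did not pass, were bright in both groups, with 13.75 and 12.50 in knockout cells and 13.65 and 12.42 in control cells. Of 13 markers of vascular smooth muscle and pericytes, 2 rose (Tagln and Notch3) and 5 fell (Smtn, Mcam, Kcnj8, Rgs4 and Rgs5), with sums of 32620 to 34722 in knockout arrays and 39484 to 42657 in control arrays. Rgs5 and Des stand in both this list and the stellate list, so the lists are not independent. Carry-over of other liver cells varied by array. The mean level of 13 hepatocyte markers ran from 9.12 to 10.59 in knockout arrays and from 8.69 to 10.81 in control arrays. That of 12 sinusoidal endothelial markers ran from 8.43 to 9.86 in knockout arrays and from 8.43 to 11.13 in control arrays, highest in control 4 and control 2. The median change of those 12 was -0.72, with Clec4g called as fallen (-1.23) and 0 risen. Of 12 Kupffer cell and macrophage markers, 1 fell (Cd68, -0.61), 0 rose and 11 did not pass, with a median change of -0.07. Clec4f, one of the 11, changed by -0.45 (limma adjusted p = 0.0517), with all knockout arrays below all control arrays. Of 12 portal fibroblast markers, 5 rose (Cd34, Dpep1, Dpt, Eln and Mfap4), 0 fell and 7 did not pass, with a median change of 0.20. Their summed linear signal was 9219 to 11890 in knockout arrays and 4796 to 5314 in control arrays. The part of the stellate, smooth muscle and portal fibroblast marker shifts in the changes below was not tested.

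In knockout cells, 12 of the 49 family genes rose, 4 fell and 33 did not pass an adjusted p of 0.05. Over all genes tested 7.38% passed, 3.76% as higher and 3.63% as lower. The median change of the 49 genes was 0.01 and that of all genes -0.02. Of the 16 genes that passed, 5 changed at least 2-fold: Adamtsl1, Adamts15, Mmp23 and Mmp2 rose and Adamtsl4 fell. The share of all genes that passed and changed at least 2-fold was 1.02%. In all 16 the knockout arrays and the control arrays did not overlap, 12 with knockout higher and 4 with knockout lower, and in the other 33 they did overlap. Over all genes 12.7% had no overlap, 6.38% with knockout higher and 6.32% with knockout lower. A rough guide to unexpressed levels was taken from 1194 receptor genes for odours and pheromones. Of the family genes, 17 had a mean level under the 95th percentile of that guide, 6.77, and 0 of those 17 passed the test. All 16 calls thus fell among the 32 genes above the guide, where 10.4% of all genes passed, 5.35% as higher and 5.1% as lower.

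**Figure D1:**
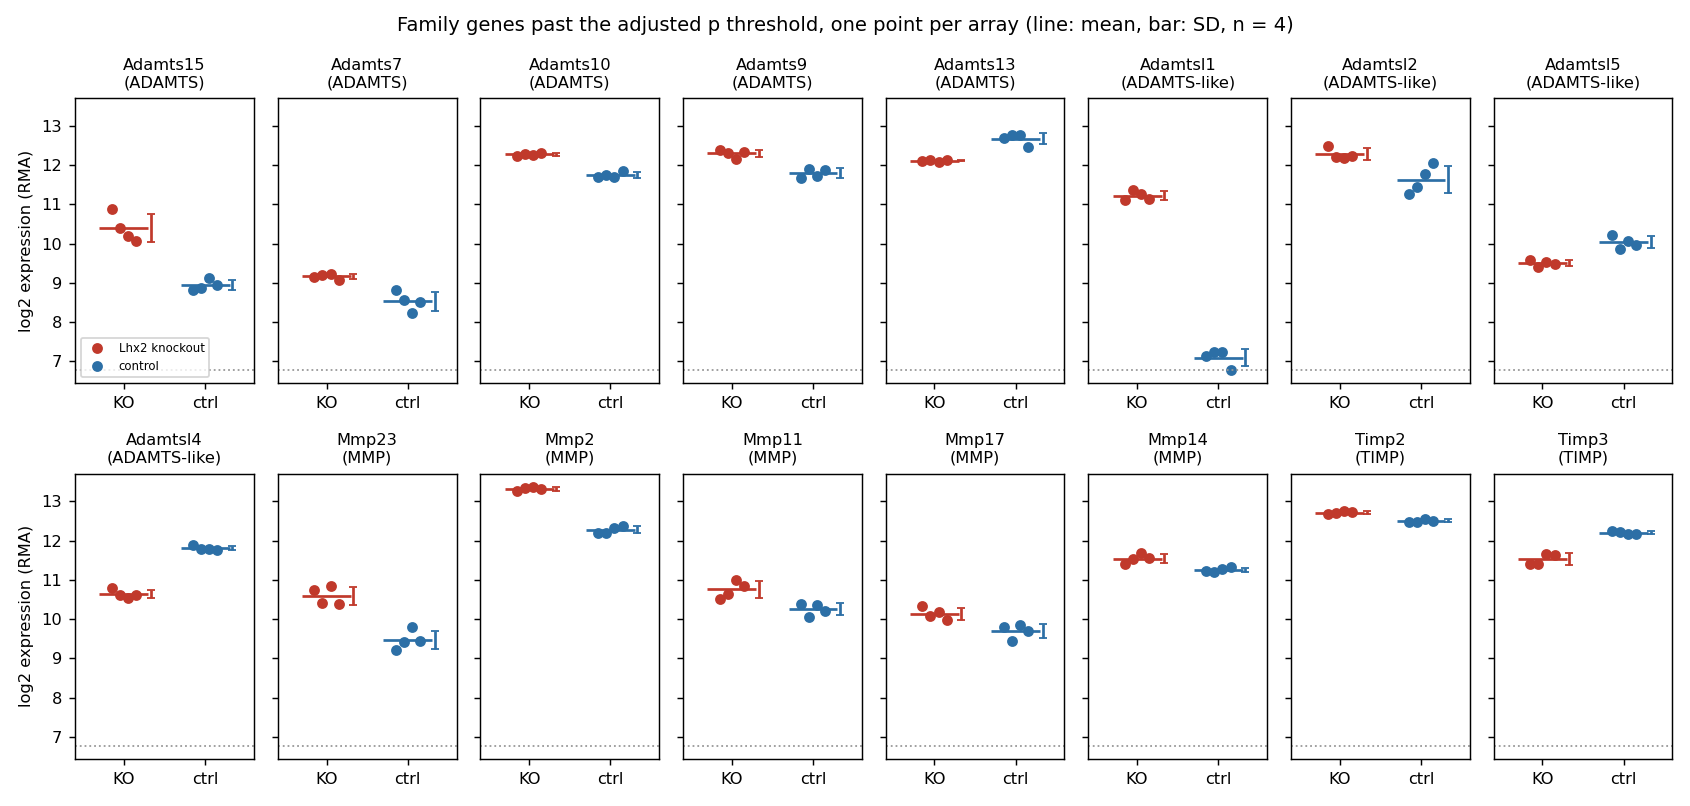
Log2 expression (y axis) of the 16 family genes that passed an adjusted p of 0.05, with 4 knockout arrays (red, left) and 4 control arrays (blue, right) in each panel; lines are means, bars SD, and the dotted line is the guide to unexpressed levels at 6.77. The knockout points lie wholly above or wholly below the control points in each panel, with the widest gap in Adamtsl1.

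**Figure D2:**
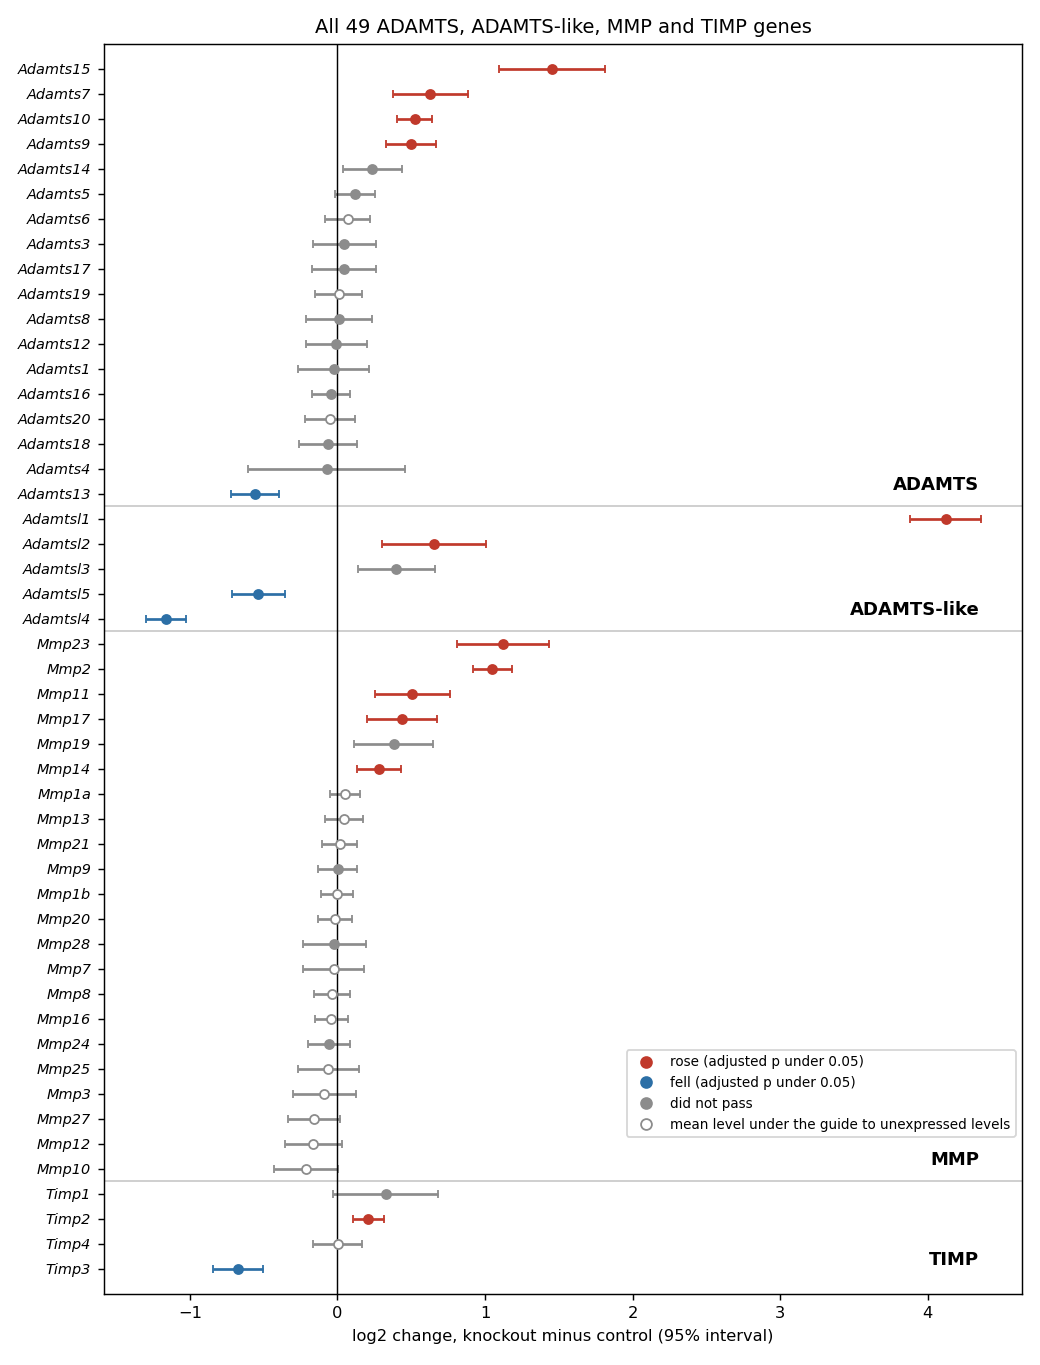
Log2 change, knockout minus control (x axis), with its 95% interval for each of the 49 genes, grouped by family and ordered by change; red rose, blue fell, grey did not pass, and open circles mark genes under the guide level. Rises and falls stand in the ADAMTS, ADAMTS-like and TIMP families, while the 5 called MMP genes lie right of 0.

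The ADAMTS-like genes held the most calls for their number: 2 of 5 rose, 2 fell and 1 did not pass. Adamtsl1, also called punctin, is a secreted matrix glycoprotein. Its levels were 11.11, 11.35, 11.27 and 11.14 in knockout arrays, against 7.13, 7.24, 7.22 and 6.78 in control arrays. Control levels lay close to the guide of 6.77, and knockout levels lay among those of bright genes. The rise of 4.12 (SE 0.11) was 17.4-fold, with a 95% interval of 14.8 to 20.5 (limma adjusted p = 5.13e-08), and was the second largest over all genes. Since array signal flattens near its floor, the fold is less certain than its interval says. A second probe set of Adamtsl1 rose by 3.68.

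Adamtsl4, a binder of fibrillin microfibrils that in humans is needed to hold the eye lens in place, had levels of 10.78, 10.62, 10.55 and 10.63 in knockout arrays, against 11.88, 11.79, 11.79 and 11.77 in control arrays. Each group was tight and the gap between them wide. Knockout cells kept 44.6% of the control signal (95% interval for the fold 0.406 to 0.491; limma adjusted p = 4.95e-06). Adamtsl5, a smaller relative that binds fibrillins as well, had 9.58, 9.40, 9.53 and 9.49 in knockout arrays and 10.23, 9.87, 10.07 and 9.97 in control arrays. It fell to 69.0% of control (change -0.54, SE 0.08, adjusted p = 0.00314).

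Adamtsl2, which binds latent TGF-beta binding proteins and fibrillin, rose, but less evenly. It had levels of 12.50, 12.21, 12.18 and 12.24 in knockout arrays, against 11.27, 11.43, 11.77 and 12.04 in control arrays. The control arrays spread over a wide range, with control 4 near the knockout levels. The rise was 0.65 (SE 0.16, adjusted p = 0.0354). Its call was lost without knockout 5, 6, 7 or 8 or control 1, 2 or 3, with an adjusted p of up to 0.106. Adamtsl3, or punctin-2, had levels of 8.63, 8.38, 8.48 and 8.18 in knockout arrays and 7.84, 8.18, 8.18 and 7.87 in control arrays. The groups touched at knockout 8, and the change of 0.40 (95% interval 0.14 to 0.66) had an adjusted p of 0.0751, or 0.0422 without knockout 8.

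Among the 18 ADAMTS proteases, 4 rose, 1 fell and 13 did not pass. The proteoglycanases, enzymes that cut versican and aggrecan, had 2 risen genes of 7. Adamts15 had levels of 10.89, 10.40, 10.20 and 10.06 in knockout arrays, against 8.82, 8.86, 9.11 and 8.94 in control arrays. All knockout arrays lay above the controls, with knockout 5 the highest. The rise was 2.74-fold (95% interval 2.14 to 3.52; adjusted p = 0.000457). Adamts9 had levels of 12.39, 12.30, 12.16 and 12.33 in knockout arrays, against 11.66, 11.91, 11.72 and 11.88 in control arrays. It rose 1.42-fold (SE 0.07 on the log2 scale, adjusted p = 0.00304). The 5 other probe sets of Adamts9 also passed, with rises of 0.46 to 0.70. Its cytokine-inducible relatives Adamts1, Adamts4 and Adamts5 did not pass. Adamts1 had levels of 12.98, 13.00, 12.57 and 12.89 in knockout arrays and 12.82, 12.95, 12.72 and 13.05 in control arrays, a change of -0.02 with a 95% interval of -0.26 to 0.22. Adamts5, the main aggrecanase of mouse cartilage, had levels of 11.97, 12.00, 12.01 and 11.96 in knockout arrays and 11.82, 12.01, 11.87 and 11.76 in control arrays, a change of 0.12 with an adjusted p of 0.382.

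Adamts4 had the widest spread of the 49 genes within a group. Its levels were 9.88, 9.72, 9.78 and 10.23 in knockout arrays, against 9.41, 10.55, 9.64 and 10.30 in control arrays. Control 2 and control 4, which stood highest for Adamts4, were also the control arrays with the highest endothelial marker means, 10.63 and 11.13, against 8.43 in control 1 and 9.45 in control 3. The part of endothelial RNA in this spread was not tested, and the change of -0.07 (95% interval -0.61 to 0.46) leaves room for a sizeable change either way. Adamts8 and Adamts20 stayed near or under the guide level.

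Other ADAMTS groups held a call or none. Adamts10, which binds fibrillin and is mutated in a human syndrome of short stature and lens defects, had levels of 12.24, 12.27, 12.25 and 12.31 in knockout arrays and 11.69, 11.74, 11.70 and 11.84 in control arrays. With so little spread, a rise of 1.44-fold had an adjusted p of 0.000229. Its paralog Adamts6 lay under the guide level. Adamts7, which binds cartilage oligomeric matrix protein and is studied in vascular smooth muscle, had levels of 9.14, 9.21, 9.23 and 9.07 in knockout arrays, against 8.82, 8.57, 8.22 and 8.50 in control arrays. It rose 1.55-fold (SE 0.11 on the log2 scale, adjusted p = 0.00779). Its paralog Adamts12 averaged 10.16 ± 0.04 in knockout and 10.17 ± 0.20 in control cells (SD, n = 4 each) and did not pass. The procollagen N-propeptidases Adamts3 and Adamts14, which trim fibrillar procollagens, did not pass. Adamts2, the other member of this group, was not analysed here, so the group is incomplete. Adamts14 had 11.22, 10.85, 10.90 and 10.96 in knockout arrays and 10.62, 10.76, 10.86 and 10.75 in control arrays, with knockout 6 just below control 3, and its change of 0.24 had an adjusted p of 0.183. Adamts3 averaged 9.92 ± 0.11 in knockout and 9.87 ± 0.18 in control cells (SD, n = 4 each), and none of its 15 other probe sets passed in limma. The procollagen genes Col1a1, Col1a2 and Col3a1, whose products these enzymes trim, rose by 0.82, 0.59 and 0.97. Adamts16, Adamts17, Adamts18 and Adamts19, whose substrates are less known, had changes from -0.07 to 0.04 and did not pass; of these, Adamts17 alone lay clearly above the guide, with 9.52 ± 0.17 in knockout and 9.47 ± 0.14 in control cells (SD, n = 4 each).

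Adamts13 was the ADAMTS gene that fell. It encodes the plasma protease that shortens von Willebrand factor, and hepatic stellate cells are known as its main source. Its levels were 12.11, 12.13, 12.08 and 12.13 in knockout arrays, against 12.69, 12.77, 12.77 and 12.46 in control arrays. Knockout arrays lay within a very narrow band, and control 4, with the highest endothelial marker mean, was the lowest control. Control 2, with the next highest endothelial mean of 10.63, was not low, at 12.77. The part of endothelial RNA in this order was not tested. The signal fell to 67.9% of control (95% interval for the fold 0.606 to 0.760; adjusted p = 0.00128). Leaving out control 4 gave a difference of -0.63, and with the endothelial marker score as a covariate it was -0.59 (adjusted p = 0.00221).

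**Figure D3:**
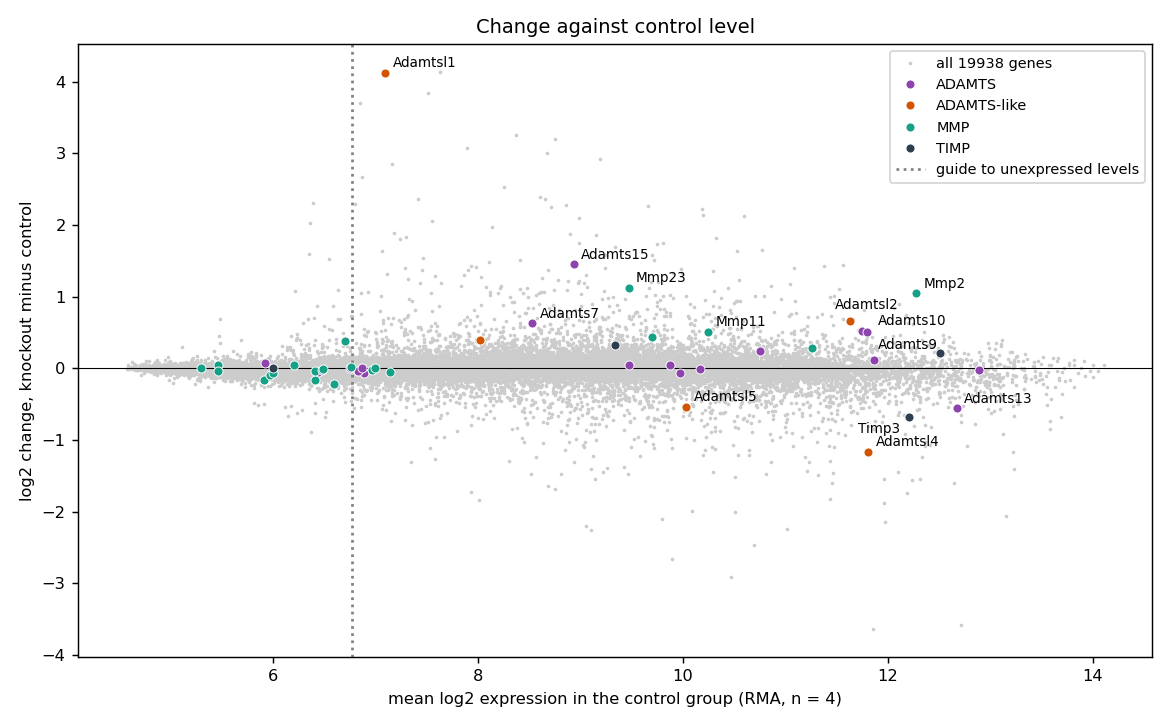
Log2 change, knockout minus control (y axis), against the mean control level (x axis, n = 4) for all genes (grey) and for the 4 families (colours); the dotted line is the guide to unexpressed levels at 6.77. Adamtsl1 stands near the top from a control level of 7.10, and Mmp2 rose from a control level of 12.28, among the brightest genes.

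Of the 22 MMP genes, 5 rose, 0 fell and 17 did not pass. In limma, 6 of the 22 had an unadjusted p under 0.05, beside 3484 of all 19938 genes tested. Mmp2 and Mmp23 had the clear rises. Mmp2, gelatinase A, cuts denatured collagen and basement membrane collagen. Its levels were 13.27, 13.35, 13.38 and 13.31 in knockout arrays, against 12.20, 12.20, 12.33 and 12.36 in control arrays. The groups stood far apart for their spread, and the rise was 2.07-fold (95% interval 1.89 to 2.27; adjusted p = 6.49e-06). Mmp9, the other gelatinase, known from neutrophils and macrophages, had 6.99, 6.98, 6.95 and 7.06 in knockout arrays and 6.99, 7.01, 6.88 and 7.09 in control arrays. Those levels lie just above the guide, and the change was 0.00 (95% interval -0.13 to 0.13). Mmp23, an unusual membrane-tethered MMP that is freed by proprotein convertases, had 10.74, 10.42, 10.83 and 10.38 in knockout arrays, against 9.22, 9.43, 9.79 and 9.44 in control arrays. It rose 2.18-fold (95% interval 1.75 to 2.70; adjusted p = 0.000967).

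The membrane-type MMPs, which act at the cell surface, had 2 risen genes of 5, both by little. Mmp15, also of this group, was not analysed here, so the group is incomplete. Mmp14, a surface collagenase that activates the Mmp2 proenzyme, had 11.40, 11.54, 11.68 and 11.55 in knockout arrays and 11.23, 11.21, 11.29 and 11.32 in control arrays. Mmp17, held to the membrane by a lipid anchor, had 10.34, 10.07, 10.17 and 9.97 in knockout arrays and 9.81, 9.44, 9.86 and 9.69 in control arrays. In both genes the lowest knockout array was close to the highest control array. The rises were 1.21-fold for Mmp14 (adjusted p = 0.0320) and 1.35-fold for Mmp17 (adjusted p = 0.0363). Mmp14 lost its call without any array except knockout 5 (adjusted p up to 0.0992), and Mmp17 lost it without knockout 5, 6 or 7 or control 2 or 4 (up to 0.0911). Mmp16, Mmp24 and Mmp25 did not pass, and all but Mmp24 lay under the guide.

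Mmp11, stromelysin-3, a fibroblast MMP that leaves the cell in its active form, had 10.53, 10.65, 11.00 and 10.85 in knockout arrays, against 10.39, 10.06, 10.35 and 10.20 in control arrays. The rise of 0.51 (SE 0.11, adjusted p = 0.0245) lost its call without knockout 7 or 8 or control 2 or 4 (adjusted p up to 0.0730). Mmp19 had 7.23, 7.04, 7.28 and 6.79 in knockout arrays and 6.80, 6.77, 6.78 and 6.45 in control arrays, at levels close to the guide. Its change of 0.38 (95% interval 0.11 to 0.65) had an adjusted p of 0.102, or 0.0294 without knockout 8. Mmp28, Mmp21, Mmp9 and Mmp24 had changes between -0.06 and 0.02.

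The collagenases and stromelysins known from inflammation were at unexpressed levels in both groups. Mmp13, the main interstitial collagenase of rodents, had 6.17, 6.28, 6.22 and 6.34 in knockout arrays and 6.24, 6.26, 6.11 and 6.22 in control arrays, a change of 0.05 (95% interval -0.08 to 0.18). It is 1 of 10 MMP genes that follow each other on chromosome 9 with no other protein-coding gene between them in RefSeq, the others being Mmp12, Mmp1b, Mmp3, Mmp1a, Mmp10, Mmp8, Mmp27, Mmp20 and Mmp7. All 10 lay under the guide of 6.77, with mean levels from 5.30 to 6.49 and changes from -0.21 to 0.05. None of the 10 passed in limma, where the smallest adjusted p was 0.302, and no unadjusted p among them was under 0.05. Mmp1a and Mmp1b are close copies, so their probe sets may share signal. Neutrophil markers were at like levels, with S100a8 at 5.73 in knockout and 5.69 in control cells and 8 of 11 markers under the guide.

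Promoters of inducible MMP genes are known for a pair of short motifs, an AP-1 site and a TATA box, which were looked for in the families. RefSeq promoters (GRCm38.p6) were matched by symbol for 34 of the 49 genes, as 37 sequences, and the 250 bases before the start were searched on both strands. The AP-1 motif, bound by Fos and Jun proteins, was searched loosely as TGANTCA, with any base in the middle. It was present in 8 of the 10 cluster genes, in Mmp20 only as TGAATCA. None of the 24 other family genes with a promoter held it, and 6.75% of all 32851 promoters did. A gene was counted if any of its promoter entries held a motif, and the 10 cluster genes had 12 entries. Shares over all promoters count each entry. The TATA box TATAAA was present in 7 of the 10 cluster genes, each of which also held TGANTCA, in 3 of the 24 others, and in 12.4% of all promoters. TAATTA, a core letter pattern of LIM homeodomain factors such as Lhx2, was present in 2 cluster genes, in 0 of the 10 called genes with a promoter, and in 4.84% of all promoters. At that share, 0 of 10 says little. The called genes Adamtsl1, Adamts7, Adamts10, Adamts15, Mmp2 and Mmp17 had no promoter entry and were not searched. These matches are letters in a window and not bound sites. The 120 bases before the start are shown for 4 cluster genes at unexpressed levels and for 3 genes that rose, with any of these motifs in capitals. Those 3 are Mmp14, Timp2 and Adamtsl2, whose calls were each lost when some single arrays were left out.
Mmp3, chr9:7445702-7445821, plus strand: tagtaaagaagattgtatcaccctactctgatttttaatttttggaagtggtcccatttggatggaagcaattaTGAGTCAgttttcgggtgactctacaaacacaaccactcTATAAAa
Mmp10, chr9:7502222-7502341, plus strand: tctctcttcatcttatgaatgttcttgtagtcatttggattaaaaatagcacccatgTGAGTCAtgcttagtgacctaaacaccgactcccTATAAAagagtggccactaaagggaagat
Mmp13, chr9:7272394-7272513, plus strand: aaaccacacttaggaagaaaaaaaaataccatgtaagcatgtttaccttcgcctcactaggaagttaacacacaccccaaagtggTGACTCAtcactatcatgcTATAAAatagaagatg
Mmp1a, chr9:7464021-7464140, plus strand: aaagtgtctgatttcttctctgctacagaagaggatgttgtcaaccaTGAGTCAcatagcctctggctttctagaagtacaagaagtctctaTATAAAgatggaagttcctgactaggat
Mmp14, chr14:54431478-54431597, plus strand: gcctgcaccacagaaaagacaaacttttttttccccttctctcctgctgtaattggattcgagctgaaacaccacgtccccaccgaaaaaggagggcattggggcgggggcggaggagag
Timp2, chr11:118355412-118355531, minus strand: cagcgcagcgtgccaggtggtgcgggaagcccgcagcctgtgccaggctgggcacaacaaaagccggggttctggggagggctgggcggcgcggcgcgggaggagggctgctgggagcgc
Adamtsl2, chr2:27079259-27079378, plus strand: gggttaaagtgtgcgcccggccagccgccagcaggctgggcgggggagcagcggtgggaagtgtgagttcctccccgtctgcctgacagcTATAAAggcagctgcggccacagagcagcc
The 4 cluster genes carry the AP-1 motif a short way before the TATA box. Mmp14 and Timp2 carry neither, and Adamtsl2 carries the TATA box alone. Over the whole window the cluster promoters had 37.2% to 53.2% G and C, and those of the called genes 54% to 71.2%. Family genes outside the cluster that did not pass ran from 53.6% in Timp4 to 80% in Adamtsl3. The share thus does not set the called genes apart from them. The median over all promoters was 52.4%.

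Of the 4 TIMP genes, 1 fell, 1 rose by little and 2 did not pass. Timp3, the inhibitor that stays bound to matrix and also blocks ADAMTS enzymes and the sheddase ADAM17, fell. It had levels of 11.40, 11.40, 11.67 and 11.65 in knockout arrays, against 12.25, 12.22, 12.18 and 12.16 in control arrays. Knockout arrays 5 and 6 were lowest, and all 4 lay well below the tightly grouped controls. The signal was 62.7% of control (95% interval for the fold 0.558 to 0.705; adjusted p = 0.000514). Timp2, which inhibits MMPs and also bridges Mmp14 and the Mmp2 proenzyme, had levels of 12.68, 12.69, 12.75 and 12.73 in knockout arrays, against 12.48, 12.47, 12.56 and 12.51 in control arrays. Both groups were tight, and the rise was small at 1.16-fold (95% interval 1.08 to 1.24; adjusted p = 0.0246). Its call was lost without knockout 6, 7 or 8 or control 1, 2 or 4 (adjusted p up to 0.0811).

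Timp1, the inhibitor most often measured in liver scarring, had levels of 9.67, 9.61, 10.06 and 9.31 in knockout arrays and 9.04, 9.45, 9.30 and 9.55 in control arrays. The groups overlapped, with knockout 8 among the controls. The change of 0.33 had a 95% interval of -0.03 to 0.68 and an adjusted p of 0.346, so the interval held both no change and a rise of up to 1.60-fold. Timp4 averaged 6.00 ± 0.10 in knockout and 6.00 ± 0.11 in control cells (SD, n = 4 each), under the guide. The 3 genes that act together in activating the Mmp2 proenzyme, Mmp2, Mmp14 and Timp2, were all called as risen, though by unequal amounts of 1.05, 0.28 and 0.21. A joint rise of the 3 was not stable. Of 8 fits that each left out 1 array, Mmp14 lost its call in 7 and Timp2 in 6, while Mmp2 kept it in all.

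For most genes that did not pass, the intervals were narrow. In 29 of the 33 the 95% interval of the fold lay within 1.5-fold either way, and the 4 exceptions were Adamts4, Adamtsl3, Mmp19 and Timp1. For the 17 genes under the guide level a narrow interval says little, since array signal hardly moves there.

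Of the 16 calls, 11 held in all 19 alternative fits, which included 8 that each left out 1 array, 2 with carry-over scores as covariates and 1 without control 1 and control 4. The 11 were Adamts7, Adamts9, Adamts10, Adamts13, Adamts15, Adamtsl1, Adamtsl4, Adamtsl5, Mmp2, Mmp23 and Timp3. The other 5, Adamtsl2, Mmp11, Mmp14, Mmp17 and Timp2, lost their call in at least 1 fit and kept their direction in all.

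**Figure D4:**
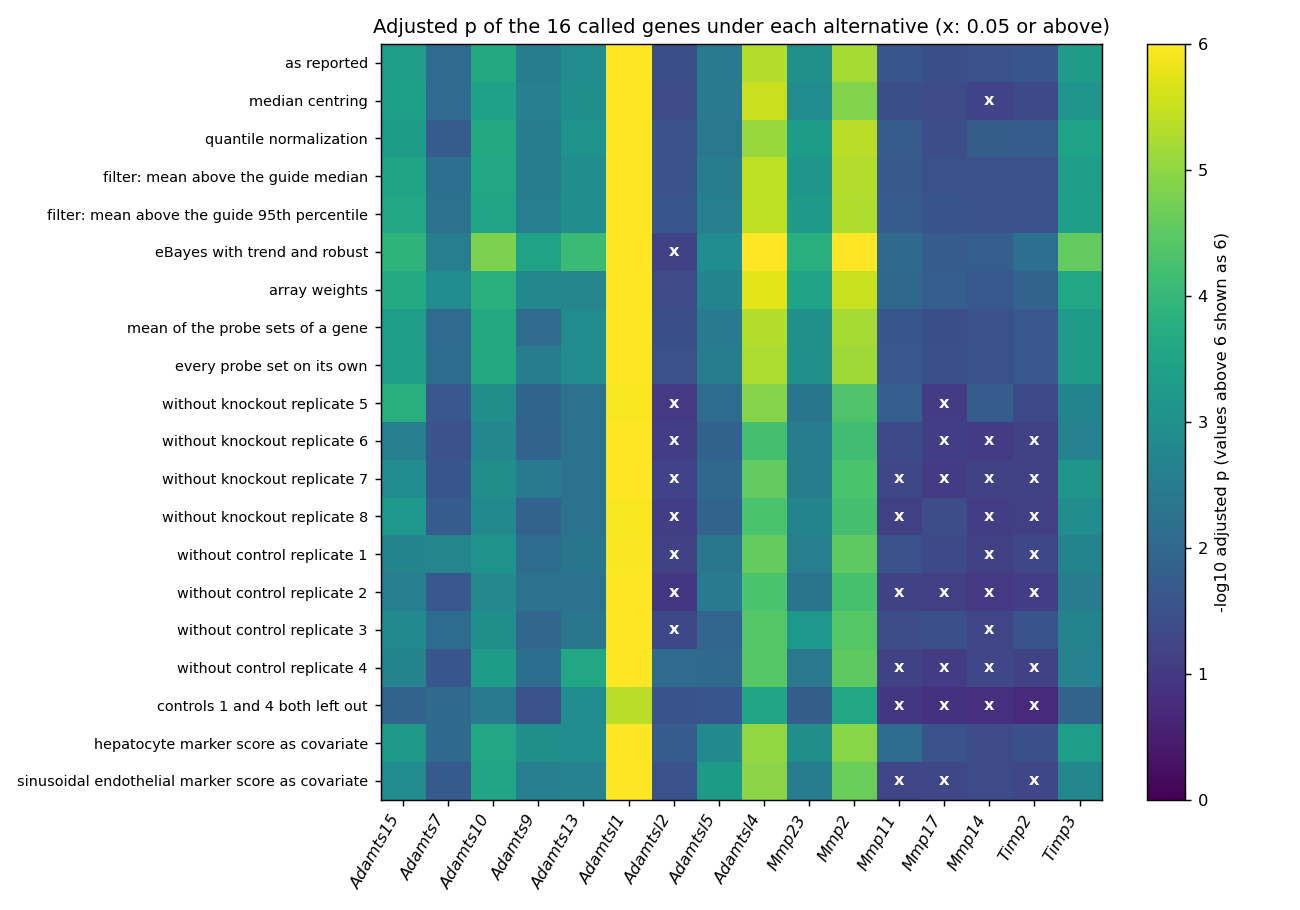
Adjusted p, as -log10 (colour), of the 16 called genes (columns) in the fit as reported and in 19 alternative fits (rows); a white x marks an adjusted p of 0.05 or above. Crosses stand in the columns of Adamtsl2, Mmp11, Mmp17, Mmp14 and Timp2.

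Genes whose products work with these families were read from lists, beside the 7.38% called over all genes. Genes listed around fibrillin microfibrils, partners of ADAMTS-like proteins, had 7 risen and 0 fallen of 13 measured, with a median change of 0.33. No fibrillin was among the risen genes. Fbn1 was not analysed here, and Fbn2 had a mean level of 6.87, close to the guide, and a change of 0.001. Lox, the crosslinking enzyme, rose by 2.05, Eln, elastin, by 0.81, Mfap2, a microfibril protein, by 0.79, Fbln5, a fibulin of elastic fibres, by 0.61, and Ltbp2, a latent TGF-beta binding protein, by 0.47. Ltbp2 lost its call without any array except knockout 8 (adjusted p up to 0.125). Basement membrane genes, substrates of Mmp2 and other MMPs, had 5 risen and 0 fallen of 17, with a median change of 0.10. The 5 were Lama2, a laminin chain (1.63), the nidogens Nid2 (1.18) and Nid1 (0.23), Hspg2, perlecan (0.35), and Lamc1, another laminin chain (0.24). Nid1 lost its call without knockout 6, 7 or 8 or control 2 or 4 (up to 0.0972), and Lamc1 without knockout 5, 6 or 8 or control 1, 2 or 4 (up to 0.0817). ADAMTS substrates had 3 risen and 1 fallen of 16, with a median change of -0.005. The 3 were the fibrillar collagens given above, and the fallen gene was Reln, reelin (-0.26), also one of the stellate markers that fell. The portal fibroblast markers described above share Eln and Mfap4 with the microfibril list.

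Protease relatives outside the families held a few calls. Of 19 ADAM, astacin and pappalysin genes, 1 rose and 2 fell (15.8% called), with a median change of -0.01. Pappa, which cuts insulin-like growth factor binding proteins, rose by 0.53, and the disintegrin genes Adam12 and Adam23 fell by 0.52 and 0.59. Adam23 lost its call without knockout 6 or 8 or control 2 (adjusted p up to 0.0762). Of 16 measured genes for other inhibitors, cofactors and the plasmin system, 2 rose and 0 fell (12.5% called), with a median change of -0.01. Plat, tissue plasminogen activator, rose by 1.07, and Pcolce, an enhancer of procollagen C-proteinase, rose by 0.22. Only leaving out control 3 kept the call of Pcolce; with any other array left out its adjusted p was up to 0.133.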

How the data were processed

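RNA of sorted stellate cells, 150 ng per sample per the labels, was measured on 1 Affymetrix Mouse Gene ST array per sample. The values are log2 expression values that the authors deposited after the Robust Multichip Algorithm (RMA), as the submitters' processing notes and the protocols in the labels say; the sources used here give no RMA version, detection calls or batches. RMA compresses differences of very dim and very bright probe sets. Values ran from 4.19 to 14.4 with array medians of 7.42 to 7.47. Of 35556 probe sets, 21789 had 1 gene symbol in the platform annotation, 1621 had several and were left out, and 12146 were unnamed here. The 49 genes had 74 probe sets, and 4 genes had more than 1; all 49 matched RefSeq by gene identifier. Adamts2 and Mmp15 were not analysed here. Groups came from the sample titles.

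Knockout minus control was fitted over all 19938 genes with limma 3.58.1 (lmFit, eBayes) in R 4.3.3, with two-sided p-values adjusted over all genes (Benjamini-Hochberg) and called under 0.05, and was tested on simulated data. Lists were counted with no set test. The number of arrays limits the precision. Genes and lists were chosen with earlier results of these data known, as was the choice to leave out control 1 and control 4. Any gene of the 4 families could be named, with full values for those past the threshold and for Timp1, Timp2, Timp3, Timp4, Mmp2, Mmp9, Mmp13, Mmp14 and Adamts1. Up to 5 genes of each related list were named, largest called changes first, and of the microfibril list also the fibrillins. Alternatives were 2 scalings, 2 filters on dim genes, eBayes with trend and robust fitting, array weights, 2 treatments of probe sets, leaving out arrays, marker scores as covariates, a threshold of 0.01 and a 1.5-fold minimum.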

Additional observations from a re-analysis of the deposited data

Results flagged for a closer look

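In 98 groups of 4 arrays (49 genes in each group), 2 held an array that stood apart from the other three by Dixon's test, which chance alone gives in about 1 of 20 groups. Mmp8 in knockout 8 was 5.32, against 5.46 to 5.47 in the other knockout arrays (gap over range 0.906), at an unexpressed level. Mmp19 in control 4 was 6.45, against 6.77 to 6.80 in the other control arrays (gap over range 0.900).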

How the results depend on the processing

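No paired analysis was possible because the replicate numbers 1 to 4 and 5 to 8 of the groups do not overlap. Of 49 genes, the 12 risen were 7 at an adjusted p of 0.01 and 6 at 1.5-fold, and 7 to 10 without 1 array (7 without knockout 7 or control 2); the 4 fallen were 2 at 1.5-fold and 4 without any 1 array. Risen ADAMTS genes were 2 and fallen 0 at 1.5-fold. Risen ADAMTS-like genes were 1 with trend and robust eBayes and at 0.01, 1 to 2 without 1 array, and fallen 1 at 1.5-fold. Risen MMP genes were 2 at 0.01, at 1.5-fold and without control 1 and control 4, 3 with the endothelial score as covariate, and 2 to 4 without 1 array. Timp2 was lost in the same settings, which left 0 risen TIMP genes, and 0 to 1 without 1 array. Mmp14 was also lost after median centring. Adamtsl3 passed without knockout 8, and Mmp19 without knockout 8 and with the hepatocyte score as covariate. Over all genes 371 rose and 405 fell without control 1 and control 4, 386 and 389 at 0.01, 284 and 239 at 1.5-fold, and 502 to 790 rose and 487 to 677 fell without 1 array. In the inhibitor and plasmin list 1 rose after median centring, with the filter at the guide median, without control 1 and control 4, with the endothelial score, at 0.01 and at 1.5-fold, 1 to 2 rose without 1 array, and 1 fell with trend and robust eBayes, array weights and every probe set on its own. In the ADAM list 0 rose at 1.5-fold, and 1 fell without control 1 and control 4, with the endothelial score, at 0.01 and at 1.5-fold, and 1 to 2 without 1 array. The fallen substrate gene, Reln, was lost (0 left) without control 1 and control 4, at 0.01 and at 1.5-fold. Risen microfibril genes were 4 at 0.01 and at 1.5-fold. Risen basement membrane genes were 2 without control 1 and control 4, at 0.01 and at 1.5-fold, and 3 to 5 without 1 array. Stab2, itself part of the endothelial score, turned to 0.50 with that score as covariate. Stricter thresholds call fewer genes by construction; the cause of the other moves was not tested. No gene of the 4 families called in any fit changed direction.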

Other observations

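The nearest protein-coding genes on either side of the 16 called genes were read from RefSeq order. Of 30 measured neighbours outside the families, 2 rose and 2 fell, beside 7.38% called over all genes. Saxo1, next to Adamtsl1, had levels of 7.47, 7.27, 7.40 and 7.18 in knockout arrays, against 6.76, 6.60, 6.43 and 6.75 in control arrays, a rise of 0.69 from the guide level (adjusted p = 0.00141). Tbc1d2b, next to Adamts7, rose by 0.31 (adjusted p = 0.0110), and Magi1, next to Adamts9, fell by 0.59 (adjusted p = 0.00106), opposite to its neighbour. Syn3, the synapsin gene within which Timp3 lies, had 7.53, 7.37, 7.34 and 7.57 in knockout arrays, against 8.74, 8.24, 8.38 and 8.34 in control arrays, and fell by 0.97 (adjusted p = 0.00047). Whether transcripts of a gene and its neighbour share signal on these arrays was not tested. The neighbours were chosen after the values of the family genes were seen.

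Adamts13, which fell, and Adamtsl2, which rose, both lie on chromosome 2, and neither of their measured nearest neighbours passed: Rexo4 and Cacfd1 beside Adamts13 changed by -0.04 and -0.08, and Mymk and Fam163b beside Adamtsl2 by -0.12 and 0.13.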
